A study of Mus musculus with 25 samples.

Results

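The genes described here are 9 lysosomal proteases of the mouse, the cathepsins Ctsb, Ctsl, Ctss, Ctsk, Ctsh, Ctsc, Ctsz and Ctsd and the legumain gene Lgmn. They were taken by name, through the probe sets annotated to one of these symbols alone, and make up 9 of the 18193 genes in the table. Each gene is represented by its brightest probe set, and all 9 were above the array median on each of the 25 arrays, so that none was lost to the filter on dim genes.

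The arrays measured RNA from whole lungs of female mice given intratracheal bleomycin, an antitumour antibiotic used to bring on fibrosis by injuring the airspaces, at 1 mg/kg in 40 ul saline. FP-KO mice, which lack the prostaglandin F receptor FP encoded by Ptgfr, and wild-type (WT) mice were sampled on Day 0 (the baseline), Day 7 and Day 14, with 4 mice in each group except WT on Day 14, which had 5. The series asked how the changes over time in FP-KO lungs compared with those in WT lungs. The strain, the ages and the construction of the FP-KO allele are not given in the sources used here.

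Cathepsins are made as inactive precursors, carried to lysosomes mainly by mannose 6-phosphate receptors, and activated there at acid pH, where they degrade protein brought in by endocytosis and autophagy. Most are papain-like cysteine proteases, cathepsin D is an aspartic protease, and legumain is a cysteine protease of another family that cuts after asparagine and trims several cathepsin precursors. In the lung they are abundant in macrophages, and several can also act outside the cell on elastin and collagen.

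Values are normalized intensities, the brightness of a probe set after quantile normalization between arrays. They can be compared between samples for 1 gene but not between genes. Differences are on the log2 scale with their standard error (SE), and adjusted p-values come from limma with Benjamini-Hochberg adjustment over 12062 genes, with 0.05 as the threshold for calling a change. Ptgfr itself averaged 43.5 ± 14.9, 43.9 ± 4.37 and 33.0 ± 9.97 in FP-KO lungs on Days 0, 7 and 14, and 305 ± 53.8, 174 ± 45.5 and 184 ± 45.9 in WT lungs (SD), and was lower in FP-KO on each day. Of 10 alveolar type 2 markers, looked at for the lung label, none was at the floor of the scale throughout any group. The floor is the 20th percentile of all values, a low bar, so this cannot establish the tissue. One array stood apart. FP-KO Day 14 No. 2 lay at -28.9 on the first principal component of all tested genes, inside the Day 0 range of -35.0 to -24.8, while the other 3 FP-KO Day 14 arrays lay between -5.37 and 1.44 and the WT Day 14 arrays between 13.4 and 25.6. Its 18S ribosomal RNA probe set read 6339 as deposited, against a median of 315.5 over all arrays, a level also seen on FP-KO Day 0 No. 1 (6648). The Actb 3' to 5' signal ratio, another reading of RNA quality, was 1.38, 1.56, 1.39 and 1.40 in FP-KO Day 14 lungs. In WT Day 14 lungs it was 1.28, 1.21, 1.25, 1.27 and 1.40. Over both genotypes it ran from 1.31 to 1.62 on Day 0 and from 1.18 to 1.35 on Day 7. The part of RNA quality in the members' changes was not tested. The Day 14 arrays also fell into separate sets on the second component, with WT No. 1 to 3 and FP-KO No. 1 and 2 between -30.1 and -27.7, and WT No. 4 and 5 and FP-KO No. 3 and 4 between -1.35 and 2.28. The member changes from Day 0 in FP-KO lungs on Day 14 are therefore also given without FP-KO Day 14 No. 2, and the FP-KO against WT differences on Day 14 without it and within each set.

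The promoters are shown because 8 of the 9 members changed in the same direction after bleomycin. RefSeq's promoter table (GRCm38.p6, 250 bases before to 50 after each start site) held 8 promoters of 7 members, with none for Ctsb and Ctsh. The letters CACGTG, the core of the element bound by TFEB, TFE3 and MITF, master regulators of lysosomal genes, were searched on both strands. They occurred in the promoters of 3 members, Ctsd, Lgmn and Ctsl, against 7.15% of 32851 promoters in the table. The longer form TCACGTGA, which contains the core, occurred in Ctsd alone among the members, against 0.974% of all promoters. GAGGAAGT, a PU.1-type motif of myeloid genes, occurred in Ctsc and Ctss, against 3.2%. A match describes the letters and does not show that a factor binds there. In the sequences below, on the strand of the gene, the capitals mark CACGTG in the first 3 and the reverse complement of GAGGAAGT in the last.
Ctsd, chr7:142387883-142387962, minus strand: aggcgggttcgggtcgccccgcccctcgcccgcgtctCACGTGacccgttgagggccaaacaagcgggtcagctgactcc
Lgmn, chr12:102439099-102439178, minus strand: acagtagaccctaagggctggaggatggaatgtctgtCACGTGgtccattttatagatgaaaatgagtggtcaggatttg
Ctsl, chr13:64370714-64370770, minus strand: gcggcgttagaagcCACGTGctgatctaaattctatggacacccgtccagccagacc
Ctsc, chr7:88277898-88277977, plus strand: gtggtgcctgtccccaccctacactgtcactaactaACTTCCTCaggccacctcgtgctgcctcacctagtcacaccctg
The motif lies 98 and 245 bases before the annotated start of Ctsd, of which the nearer is shown. It lies 236 before that of Ctsl and 151 before that of Ctsc. For Lgmn it lies 49 before 1 of its annotated starts, and the promoter of the other start held no CACGTG. The 3 members with CACGTG included both the member with the smallest change over time, Ctsl, and members with large ones, Ctsd and Lgmn.

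Most of the proteases were higher in injured lungs of both genotypes. On Day 7, 8 of 9 members were called higher than on Day 0 in FP-KO lungs, where 12.6% of all tested genes were, and 8 of 9 in WT lungs, where 17.1% were; Ctsl was the exception in each. By Day 14 the count was 5 of 9 in FP-KO lungs (1.85% of all genes called higher) and 9 of 9 in WT lungs (19.1%). No member was called lower than on Day 0 in either genotype at either time. The median log2 difference from Day 0 over the 9 members was 0.68 in FP-KO and 0.85 in WT lungs on Day 7, and 0.45 in FP-KO and 0.91 in WT lungs on Day 14, while the median of all tested genes was 0.0024, -0.013, 0.010 and -0.011 in those comparisons. The later lungs did not overlap the Day 0 lungs for 8 members in FP-KO (26.5% of all genes) and 9 in WT (35%) on Day 7, and for 3 in FP-KO (9.87%) and 9 in WT (28.5%) on Day 14. Without FP-KO Day 14 No. 2, 8 of 9 were called higher in FP-KO lungs on Day 14 (3.18% of all genes), with a median of 0.56. Within each set of Day 14 arrays the same change in FP-KO ranged from 0.20 (Ctsl) to 1.38 (Ctsk), median 0.54, with FP-KO No. 3 and 4, and from 0.03 (Ctsl) to 0.78 (Ctsd), median 0.35, with FP-KO No. 1 and 2. The FP-KO Day 14 count was 1 without FP-KO Day 14 No. 1. It was 2 without No. 3 or No. 4 of that group or without FP-KO Day 0 No. 1 or No. 3. It was 3 without FP-KO Day 0 No. 2 or No. 4. The adjustment runs over all genes, and the shares of all genes called in these fits are not given. These counts therefore do not describe the members alone.

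Ctsk, the collagen-degrading cathepsin best known from osteoclasts, had the largest fitted differences from Day 0. In FP-KO lungs it measured 635, 639, 710.1 and 936 on Day 0, 1916, 2070.0, 2163 and 1619 on Day 7 and 1399, 664, 1731 and 2039 on Day 14. In WT lungs it measured 559.8, 788, 633 and 595 on Day 0, 1839.8, 1848, 2877 and 2288 on Day 7 and 2150.0, 2705, 2854, 2756 and 2468 on Day 14. Every Day 7 lung was above every Day 0 lung in both genotypes, and on Day 14 one FP-KO lung, No. 2, was back within the Day 0 values. The log2 difference from Day 0 on Day 7 was 1.42 ± 0.23 in FP-KO lungs (2.68-fold, adjusted p = 0.000194) and 1.77 ± 0.23 in WT lungs (3.41-fold, adjusted p = 5.62e-06). On Day 14 the difference was 0.90 ± 0.23 in FP-KO (adjusted p = 0.0348; 1.24 and adjusted p = 0.000135 without No. 2) and 2.01 ± 0.22 in WT (adjusted p = 6.2e-07).

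Ctss, an endopeptidase that stays active at neutral pH, cleaves elastin and processes the invariant chain of MHC class II in antigen-presenting cells, was higher on Day 7 in all lungs of both genotypes. FP-KO lungs measured 9175, 10137, 7986 and 8751 on Day 0, 19137, 18055, 14622 and 14644 on Day 7 and 17128, 7350.4, 15997 and 16892 on Day 14. WT lungs measured 6397, 8093, 7733 and 7469 on Day 0, 18989, 19355, 16569.6 and 17867 on Day 7 and 20526, 19236, 18856, 19842 and 18136 on Day 14. Only FP-KO No. 2 was low on Day 14, below the lowest FP-KO Day 0 lung. The Day 7 log2 difference was 0.88 ± 0.18 in FP-KO (adjusted p = 0.00134) and 1.30 ± 0.18 in WT (adjusted p = 9.14e-06). On Day 14 Ctss was at 0.60 ± 0.18 in FP-KO, which did not pass the threshold (adjusted p = 0.0673) but did without No. 2 (0.89, adjusted p = 2.55e-05), and at 1.38 ± 0.17 in WT (adjusted p = 2.2e-06).

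Ctsb, an endopeptidase that can also remove dipeptides from a protein's end, ranged over 9424 to 10334 on Day 0, 13994 to 15441 on Day 7 and 10767 to 16448 on Day 14 in FP-KO lungs, and over 8451 to 9582, 14952 to 16892 and 14644 to 17759 in WT lungs. Neither later day overlapped Day 0 in either genotype. Its log2 difference from Day 0 was 0.56 ± 0.10 in FP-KO (adjusted p = 0.00036) and 0.76 ± 0.10 in WT (adjusted p = 3.77e-06) on Day 7. By Day 14 it was 0.45 ± 0.10 in FP-KO (adjusted p = 0.0148; 0.56 and adjusted p = 0.000568 without No. 2) and 0.85 ± 0.092 in WT (adjusted p = 5.09e-07). Ctsl, a broad endopeptidase that processes the invariant chain in mouse thymic epithelium, changed least. It ranged over 8795 to 10705, 8897 to 9975 and 8795 to 11548 on Days 0, 7 and 14 in FP-KO lungs, and over 8598 to 9929, 9943 to 11548 and 10871 to 12703 in WT lungs. The FP-KO groups overlapped and the WT later groups lay above Day 0. Its log2 difference on Day 7 was -0.040 in FP-KO (95% interval -0.23 to 0.15) and 0.18 in WT (95% interval -0.008 to 0.37), neither past the threshold (adjusted p = 0.791 and 0.128). On Day 14 the difference was 0.11 in FP-KO (adjusted p = 0.538; 0.20 and adjusted p = 0.225 without No. 2) and 0.33 ± 0.088 in WT, the only Ctsl difference to be called (adjusted p = 0.0051).

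**Figure D1:**
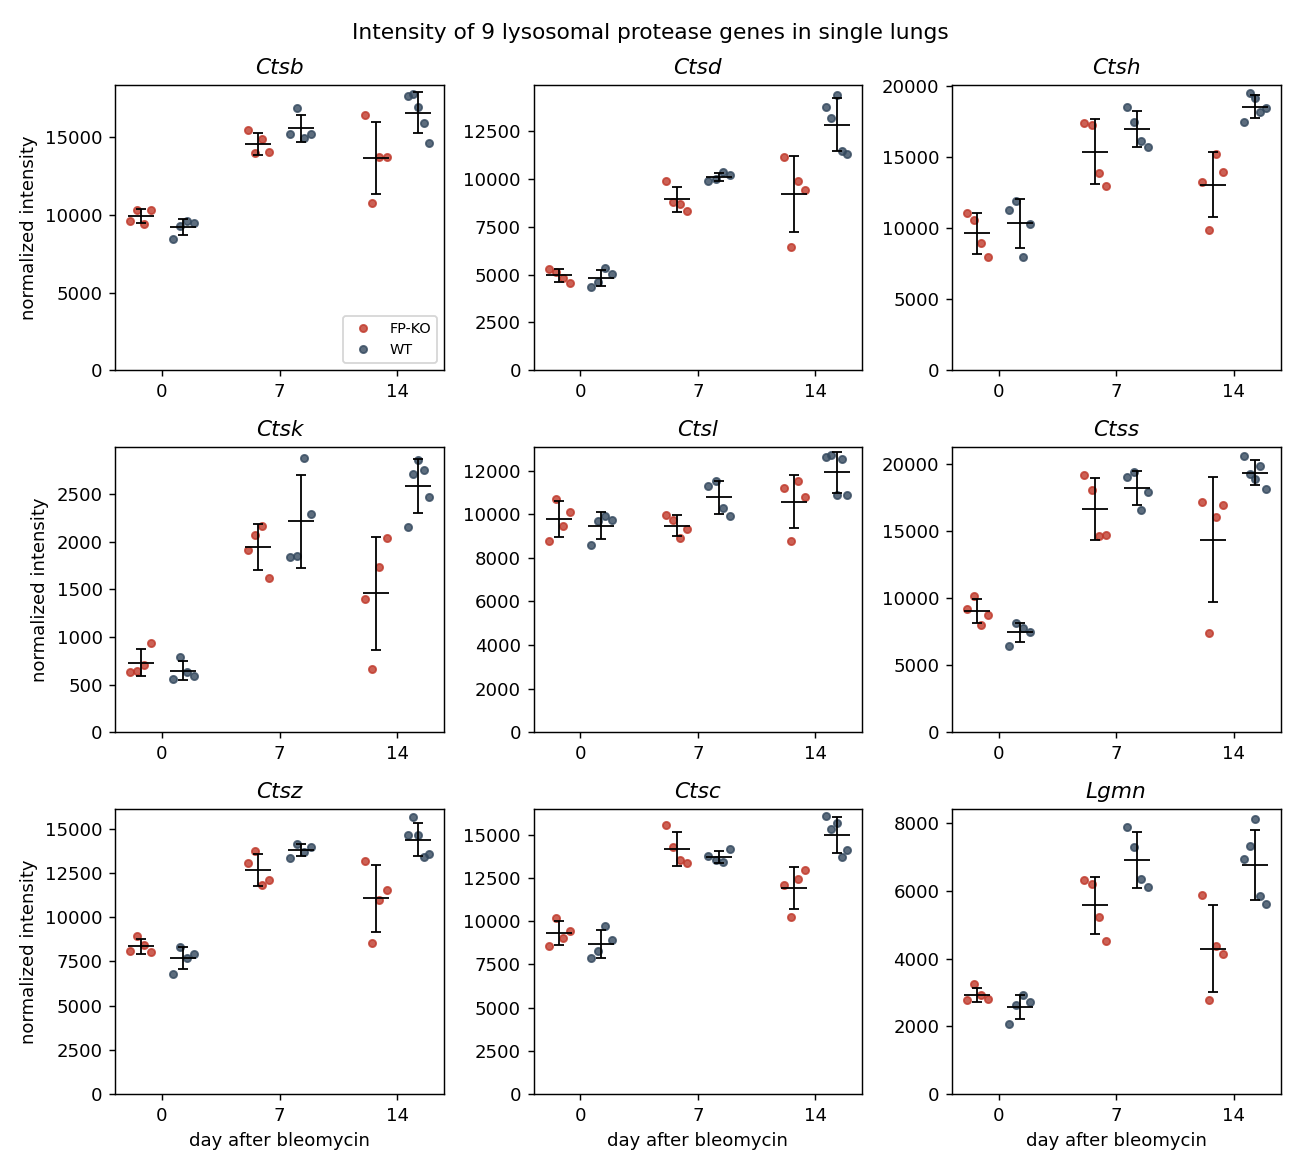
Normalized intensity (vertical axes, each with its own range) of the 9 protease genes in single lungs, FP-KO left of WT, by day. Points are mice, dashes are group means and bars are the SD. FP-KO Day 14 No. 2 is the lowest FP-KO Day 14 point in 9 of 9 panels.

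The 3 exopeptidases, which cut from the ends of proteins, were also called higher on Day 7 in both genotypes. Ctsc, or dipeptidyl peptidase I, activates the granule serine proteases of neutrophils, mast cells and cytotoxic lymphocytes. In FP-KO lungs it measured 8554, 10203, 9019 and 9411 on Day 0, 15546, 14276, 13565 and 13371 on Day 7 and 12098, 10219, 12446 and 12951 on Day 14. In WT lungs it measured 7865, 8287, 9715 and 8909.5 on Day 0, 13796, 13542, 13403 and 14186 on Day 7 and 16079, 15314, 15707, 13719 and 14128 on Day 14. The FP-KO Day 14 lungs lay above all FP-KO Day 0 lungs and below all FP-KO Day 7 lungs. The log2 difference from Day 0 was 0.61 ± 0.087 in FP-KO (adjusted p = 4.6e-05) and 0.66 ± 0.087 in WT (adjusted p = 5.08e-06) on Day 7. By Day 14 it was 0.36 ± 0.087 in FP-KO (adjusted p = 0.0254; 0.43 and adjusted p = 0.00493 without No. 2) and 0.79 ± 0.082 in WT (adjusted p = 3.51e-07). Ctsc was also the 1 member called between the later days in FP-KO, lower on Day 14 than on Day 7 with a difference of -0.25 (adjusted p = 0.0393; 12% of all genes were called lower), and it was not called without No. 2 (-0.18, adjusted p = 0.178; 4.85% of all genes).

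Ctsz, a carboxypeptidase, measured 8066, 8944, 8408 and 8047 on Day 0, 13076, 13743, 11808 and 12098 on Day 7 and 13173, 8564, 10978 and 11525 on Day 14 in FP-KO lungs. In WT lungs the values were 6814, 8306, 7693 and 7911 on Day 0, 13371, 14149, 13699.5 and 13963 on Day 7 and 14644, 15668, 14622, 13403 and 13542 on Day 14. All later lungs lay above Day 0 of their genotype except FP-KO Day 14 No. 2. The log2 difference from Day 0 was 0.60 ± 0.10 in FP-KO (adjusted p = 0.000208) and 0.85 ± 0.10 in WT (adjusted p = 1.41e-06) on Day 7. On Day 14 the difference was 0.39 ± 0.10 in FP-KO (adjusted p = 0.0336; 0.50 and adjusted p = 0.0013 without No. 2) and 0.91 ± 0.094 in WT (adjusted p = 3.44e-07). Ctsh, an aminopeptidase that processes surfactant proteins in alveolar type 2 cells, ranged over 7956 to 11071, 12969 to 17430.1 and 9862 to 15238 on Days 0, 7 and 14 in FP-KO lungs, and over 7980.1 to 11889, 15750.1 to 18525 and 17476 to 19512 in WT lungs. The FP-KO Day 14 range overlapped that of Day 0 and the other later ranges did not. Its log2 difference was 0.68 ± 0.14 in FP-KO and 0.73 ± 0.14 in WT on Day 7 (adjusted p = 0.00133 and 0.000296), and on Day 14 0.43 ± 0.14 in FP-KO, not called (adjusted p = 0.087) but called without No. 2 (0.56, adjusted p = 0.017), and 0.86 ± 0.13 in WT (adjusted p = 2.68e-05). Of 10 markers of alveolar type 2 cells, on Day 7, 0 were called higher and 2 lower in FP-KO, and 1 was called higher and 4 lower in WT. Among all genes on that day, 12.6% were called higher and 10.7% lower in FP-KO, and 17.1% and 18% in WT.

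Ctsd, the aspartic protease that also cuts prosaposin into the activators of sphingolipid breakdown, was the member with the smallest adjusted p in WT lungs on both days. It measured 5318, 5157, 4806 and 4541 on Day 0, 9900.1, 8795, 8691 and 8351 on Day 7 and 11158, 6469, 9887 and 9411 on Day 14 in FP-KO lungs. In WT lungs it measured 4376, 4627, 5322 and 5030.2 on Day 0, 9911, 10018, 10378 and 10203 on Day 7 and 13776, 13218, 14421, 11464 and 11314 on Day 14. All later lungs of both genotypes, FP-KO No. 2 included, were above Day 0. The log2 difference from Day 0 was 0.85 ± 0.12 in FP-KO (adjusted p = 4.87e-05) and 1.07 ± 0.12 in WT (adjusted p = 1.11e-06) on Day 7. By Day 14 it was 0.87 ± 0.12 in FP-KO (adjusted p = 0.00112; 1.03 and adjusted p = 1.53e-06 without No. 2) and 1.41 ± 0.12 in WT (adjusted p = 5.85e-08). WT Day 14 lungs did not overlap WT Day 7 lungs, though that step of 0.34 ± 0.12 did not pass the threshold (adjusted p = 0.0791).

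Lgmn measured 2764, 3237, 2919 and 2799 on Day 0, 6324, 6198, 5217 and 4523 on Day 7 and 5884, 2774, 4376 and 4137 on Day 14 in FP-KO lungs. WT lungs measured 2079, 2622, 2917 and 2711 on Day 0, 7872, 7275, 6346 and 6118 on Day 7 and 6925, 7328, 8108, 5849.7 and 5613 on Day 14. On Day 7 every lung was above Day 0, and FP-KO Day 14 No. 2 was within the FP-KO Day 0 values. Its log2 difference from Day 0 was 0.92 ± 0.17 in FP-KO and 1.42 ± 0.17 in WT on Day 7 (adjusted p = 0.000601 and 1.83e-06). On Day 14 the difference was 0.50 ± 0.17 in FP-KO, which did not pass (adjusted p = 0.107; 0.70 and 0.00992 without No. 2), and 1.39 ± 0.16 in WT (adjusted p = 1.27e-06).

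**Figure D2:**
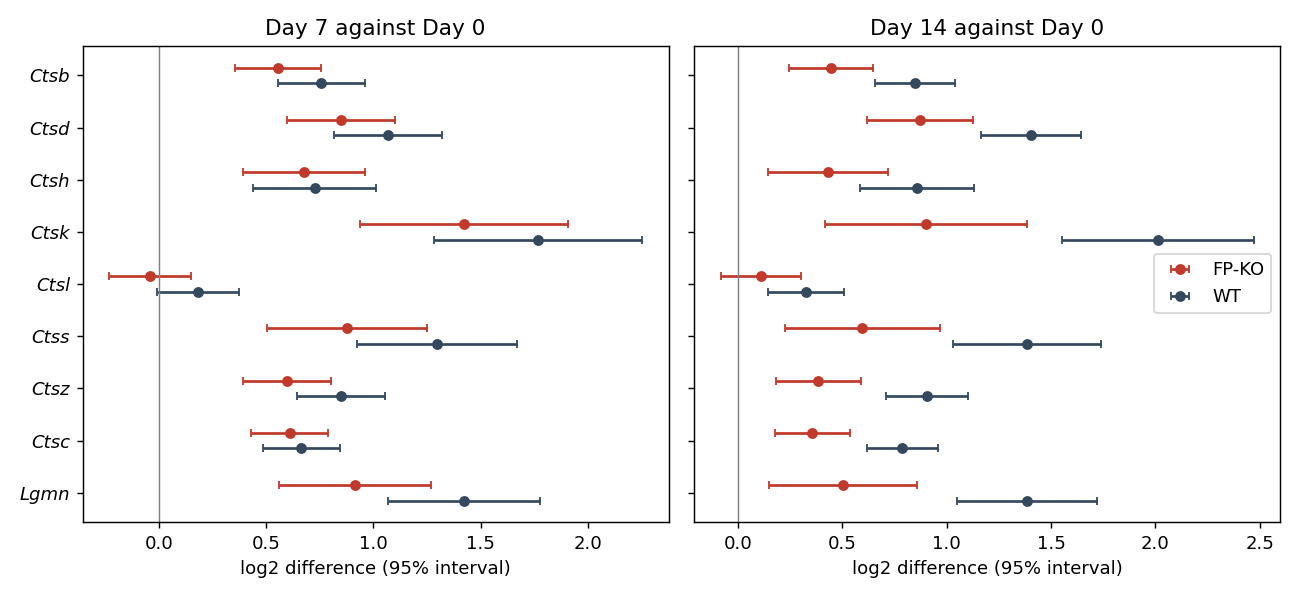
Log2 difference from Day 0 (horizontal axes) for each protease on Day 7 and Day 14, FP-KO above WT; points are limma estimates and bars their 95% intervals. On Day 14 the FP-KO estimates run from 0.11 (Ctsl) to 0.90 (Ctsk) and the WT estimates from 0.33 (Ctsl) to 2.01 (Ctsk).

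Between Day 7 and Day 14, WT lungs showed no called change in any of the 9 members (limma, 1 at an unadjusted p under 0.05; 3.56% of all genes were called higher and 2.37% lower). The order of the group means was much the same from gene to gene. The Day 0 groups of both genotypes were the lowest pair for every member except Ctsl, whose FP-KO Day 7 mean was lowest. WT Day 14 was the highest of the 6 groups for every member except Lgmn, which was highest in WT on Day 7, and the WT Day 14 and Day 7 levels did not differ beyond the threshold.

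The genotypes were set against each other on each day. On Day 0 no member was called (0.0166% of all genes were called in either direction; 0 of 9 at an unadjusted p under 0.05), with log2 differences of FP-KO minus WT from -0.10 (Ctsh) to 0.28 (Ctss, 95% interval -0.092 to 0.65). On Day 7 again 0 of 9 were called (0.0166% of all genes; 0 of 9 at an unadjusted p under 0.05), with differences from -0.32 (Lgmn, 95% interval -0.67 to 0.036) to 0.045 (Ctsc, 95% interval -0.13 to 0.23). On Day 14 all 9 were lower in FP-KO and 7 were called, where 5.64% of all genes were called lower. The groups did not overlap for 6 members, against 11% of all genes.

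On Day 14 Ctsk averaged 1458 ± 590.4 in FP-KO and 2587 ± 282 in WT lungs (SD, n = 4 and 5), a log2 difference of -0.94 ± 0.22 (1.91-fold lower, adjusted p = 0.0101). Lgmn averaged 4293 ± 1274 in FP-KO and 6765 ± 1038 in WT (-0.69 ± 0.16, 1.62-fold lower, adjusted p = 0.0091). Ctsh averaged 13066 ± 2291 and 18565 ± 798 in FP-KO and WT (-0.52 ± 0.13, adjusted p = 0.0138). These 3 had the largest called differences between the genotypes. Ctsd was at 9232 ± 1984 in FP-KO against 12839 ± 1391 in WT (-0.50 ± 0.12, adjusted p = 0.00901). Ctsz was at 11060.0 ± 1908 in FP-KO against 14376 ± 928 in WT (-0.39 ± 0.094, adjusted p = 0.0106). The differences of Ctsc and Ctsb were -0.33 ± 0.082 (adjusted p = 0.013) and -0.29 ± 0.092 (adjusted p = 0.043). Ctss, at 14342 ± 4686 in FP-KO and 19319 ± 915 in WT, and Ctsl did not pass (-0.51 ± 0.17, adjusted p = 0.0578, and -0.18 with 95% interval -0.36 to 0.005, adjusted p = 0.211).

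The change by Day 14 from Day 0 was compared between the genotypes as an interaction. It was smaller in FP-KO for 9 of 9 members, and called for 3: Lgmn (-0.88 ± 0.23, adjusted p = 0.043), Ctsz (-0.52 ± 0.14, adjusted p = 0.0415) and Ctsc (-0.43 ± 0.12, adjusted p = 0.0499), where 1.84% of all genes were called lower. Ctsk had the largest value, -1.11, and did not pass (adjusted p = 0.0584). The count of 3 was 6 without FP-KO Day 14 No. 1 and 5 without No. 4 of that group. It was 1 without FP-KO Day 14 No. 3, FP-KO Day 7 No. 3 or WT Day 0 No. 2. It was 0 without FP-KO Day 14 No. 2, any 1 FP-KO Day 0 lung, WT Day 0 No. 1 or No. 4, or WT Day 14 No. 1, No. 2 or No. 3. Except for the fit without FP-KO Day 14 No. 2, the shares of all genes called are not given. These counts therefore do not describe the members alone. No member was called in the change by Day 7 from Day 0 or by Day 14 from Day 7 (limma, 1 and 2 of 9 at an unadjusted p under 0.05; 0 and 0.00829% of all genes were called).

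These Day 14 calls rested largely on FP-KO Day 14 No. 2, the lowest FP-KO Day 14 lung for 9 of 9 members. It was inside the FP-KO Day 0 range for 5. Without it, 1 member was called lower in FP-KO, Ctsk (limma, -0.60, adjusted p = 0.0476), where 1.66% of all genes were. At an unadjusted p under 0.05 there were 8 of 9 members without it and 8 of 9 with it. The median over the 9 was -0.28 without it and -0.50 with it. Without it, 0 interactions were called (limma, 7 at an unadjusted p under 0.05, 0.597% of all genes called). All 9 differences kept their negative sign. Within WT No. 1 to 3 and FP-KO No. 1 and 2, 7 members were called (5.16% of all genes; median -0.70), a set that includes No. 2. Within WT No. 4 and 5 and FP-KO No. 3 and 4, all 9 were lower in FP-KO with a median of -0.24, from -0.47 (Ctsk) to -0.065 (Ctsl), and 0 were called (limma; 4 at an unadjusted p under 0.05; 0.00829% of all genes; smallest adjusted p = 0.382 for Lgmn). In this whole-lung RNA, fewer cells of a type and less RNA per cell cannot be told apart.

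**Figure D3:**
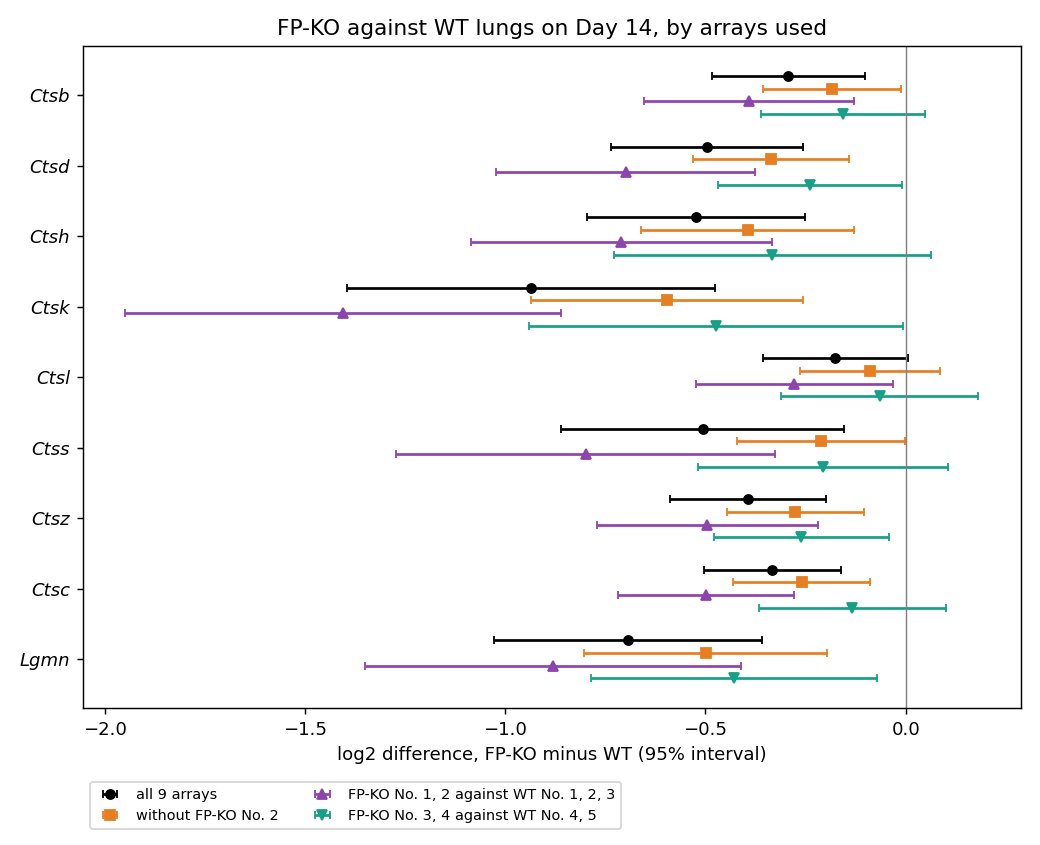
Log2 difference, FP-KO minus WT, on Day 14 (horizontal axis) for each protease with all arrays, without FP-KO Day 14 No. 2 and within each set of arrays; points are limma estimates and bars their 95% intervals. All points lie below 0, and the median over the 9 genes is -0.50 with all arrays, -0.28 without No. 2, -0.70 in the set that holds No. 2 and -0.24 in the other.

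Further lysosomal genes were read from lists that hold no member. Of 34 other lysosomal hydrolases and cofactors, on Day 7, 14 were called higher and 2 lower in FP-KO lungs, and 21 higher and 1 lower in WT lungs. On Day 14, 5 were called higher and 0 lower in FP-KO, and 24 higher and 2 lower in WT. Without FP-KO Day 14 No. 2, 9 were called higher in FP-KO on that day. Among all genes on Day 7, 12.6% were called higher and 10.7% lower in FP-KO, and 17.1% and 18% in WT. On Day 14 the shares were 1.85% and 1.41% in FP-KO, and 19.1% and 19.5% in WT. Without FP-KO Day 14 No. 2, 3.18% were called higher in FP-KO on that day. Gla, alpha-galactosidase A, was at 1.23 ± 0.19 in FP-KO and 1.36 ± 0.19 in WT on Day 7. Gusb, beta-glucuronidase, was at 0.90 ± 0.12 in FP-KO and 1.30 ± 0.12 in WT. Acp5, tartrate-resistant acid phosphatase, was at 0.97 ± 0.21 in FP-KO and 1.00 ± 0.21 in WT. These 3 had the largest called differences of the list on that day in both genotypes. On Day 14, 11 hydrolases were called lower in FP-KO than in WT (5.64% of all genes) and 1 higher (4.89%). Gusb (-0.63 ± 0.11) and Acp5 (-1.04 ± 0.20) were among the lower ones. Without No. 2 the counts were 2 lower (1.66% of all genes) and 0 higher (1.59%).

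Of 20 lysosomal membrane proteins, 3 were called higher in FP-KO and 7 in WT on Day 7, and 0 in FP-KO (2 without No. 2) and 7 in WT on Day 14. Among all genes, 12.6% were called higher in FP-KO and 17.1% in WT on Day 7. On Day 14 the shares were 1.85% in FP-KO (3.18% without No. 2) and 19.1% in WT. The FP-KO count of membrane proteins on Day 7 was near the share of all genes. The macrophage sialomucin Cd68 led on Day 7, at 1.38 ± 0.25 in FP-KO and 1.84 ± 0.25 in WT. The vacuolar ATPase is the proton pump that acidifies lysosomes. Of its 16 subunits, 3 in FP-KO and 5 in WT were called higher on Day 7, and 1 in FP-KO (2 without No. 2) and 7 in WT on Day 14. Atp6v0d2 and Tcirg1, subunits known from osteoclasts and macrophages, were the largest in WT on Day 14, at 1.30 ± 0.16 and 0.76 ± 0.10.

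Genes that deliver, regulate or restrain these enzymes were counted as well. On Day 7, 12.6% of all genes were called higher in FP-KO and 17.1% in WT, and 10.7% and 18% were called lower. The counts of sorting genes that follow were near these shares. Of 10 that sort enzymes to lysosomes, 1 in FP-KO and 2 in WT were called higher on Day 7, and 1 in each was called lower, the sortilin gene Sort1 (-0.53 ± 0.093 in FP-KO and -0.55 ± 0.093 in WT). Of 7 MiT/TFE regulators, 2 in FP-KO and 2 in WT were called higher on Day 7. One of them, Tfec, a family member largely restricted to macrophages, was at 1.06 ± 0.32 in FP-KO and 1.64 ± 0.32 in WT. Of 5 tested cystatins and other inhibitors, 2 in FP-KO and 2 in WT were called higher on Day 7. Cstb, an inhibitor of cysteine cathepsins, was at 0.66 ± 0.10 in FP-KO and 0.83 ± 0.10 in WT.

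The serine proteases that cathepsin C activates differed among themselves. Of 4 tested, 2 in FP-KO and 2 in WT were called lower on Day 7 and 1 in each was called higher. Granzyme A, Gzma, was at -0.95 ± 0.23 in FP-KO and -1.33 ± 0.23 in WT, and Gzmb at -0.71 ± 0.20 in FP-KO and -0.72 ± 0.20 in WT. The one called higher was Gzmk, at 1.09 ± 0.39 in FP-KO and 1.75 ± 0.39 in WT. Of 10 genes of MHC class II antigen processing, the pathway Ctss serves, 1 was called higher and 0 lower in FP-KO, and 6 higher and 1 lower in WT on Day 7. On Day 14, 0 were called higher and 0 lower in FP-KO, and 7 higher and 3 lower in WT. Among all genes on Day 7, 12.6% were called higher and 10.7% lower in FP-KO, and 17.1% and 18% in WT. On Day 14 the shares were 1.85% and 1.41% in FP-KO, and 19.1% and 19.5% in WT. The MHC class II count called higher in FP-KO on Day 7 was near the share of all genes. Of 5 other tested cathepsins, 1 in FP-KO and 2 in WT were called higher on Day 7 and none lower. On Day 14, 2 were called higher and 1 lower in FP-KO, and 2 higher and 2 lower in WT. Ctsa, a carboxypeptidase, was called higher on Day 14 in both genotypes, at 0.48 ± 0.13 in FP-KO and 1.02 ± 0.12 in WT. The second higher one was Ctsf in FP-KO (0.73 ± 0.17) and Ctse in WT (0.85 ± 0.28). Ctsw, known from NK and cytotoxic T cells, was called lower in both, at -0.71 ± 0.19 in FP-KO (not called without No. 2) and -0.46 ± 0.18 in WT, and Ctso was lower in WT (-0.32 ± 0.12).

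**Figure D4:**
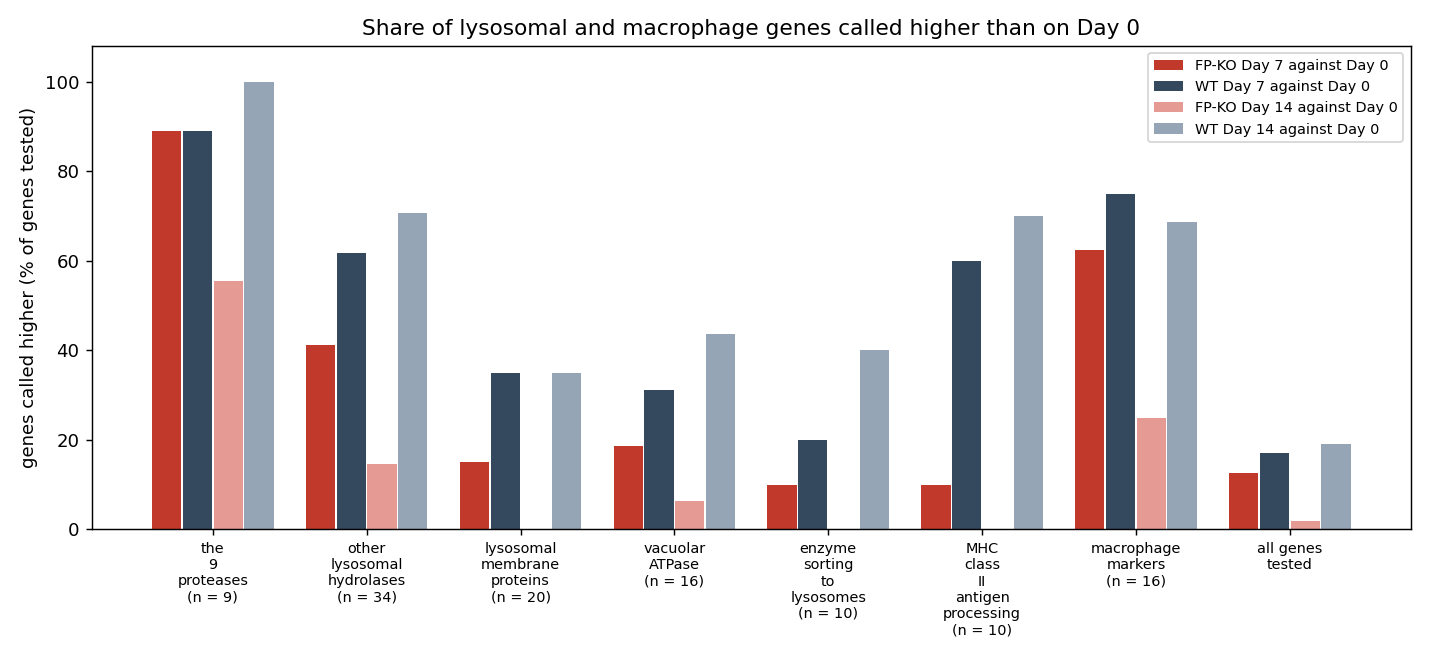
Share of genes called higher than on Day 0 (vertical axis, percent of genes tested), FP-KO left of WT on each day. Shown are the 9 proteases, other lysosomal hydrolases, lysosomal membrane proteins, vacuolar ATPase, enzyme sorting, MHC class II antigen processing and macrophage markers. Beside them is the share among all 12062 tested genes. The 9 proteases stand at 8 of 9 in each genotype on Day 7, and at 5 of 9 in FP-KO and 9 of 9 in WT on Day 14.

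Markers of macrophages, the cell type in which these proteases are abundant, were also higher after bleomycin. Of 16 macrophage genes, 10 in FP-KO and 12 in WT were called higher on Day 7, 4 in FP-KO (8 without No. 2) and 11 in WT on Day 14, and 0 were called lower than on Day 0 in any of these comparisons. Among all genes, 12.6% in FP-KO and 17.1% in WT were called higher on Day 7. On Day 14 the shares were 1.85% in FP-KO (3.18% without No. 2) and 19.1% in WT. C1qb was at 1.92 ± 0.27 in FP-KO and 2.69 ± 0.27 in WT on Day 7. On Day 14, 8 of 16 were lower in FP-KO than in WT and 1 higher, and without No. 2, 4 were lower and 0 higher. Among all genes, 5.64% were called lower and 4.89% higher in that comparison, and 1.66% and 1.59% without No. 2. The summed intensity of the 16 markers ran over 35418 to 39499, 44577 to 55612 and 32203 to 49582 in FP-KO lungs on Days 0, 7 and 14, and over 32845 to 36426, 52522 to 61098 and 48865 to 57740 in WT lungs. The lowest of the FP-KO Day 14 lungs was No. 2, with 32203. Each sum is weighted toward the brighter probe sets of its list. The sums of members and markers did not always run together. In WT the markers' median was lower on Day 14 (53456) than on Day 7 (57971), and the members' median was higher on Day 14 (121569) than on Day 7 (108185). FP-KO Day 14 No. 1 had the highest member sum of its group, 101740, and the second lowest marker sum, 40749. None of the 16 was at the floor of the scale in any lung. The part of the macrophage markers in the members' changes was not tested.

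**Figure D5:**
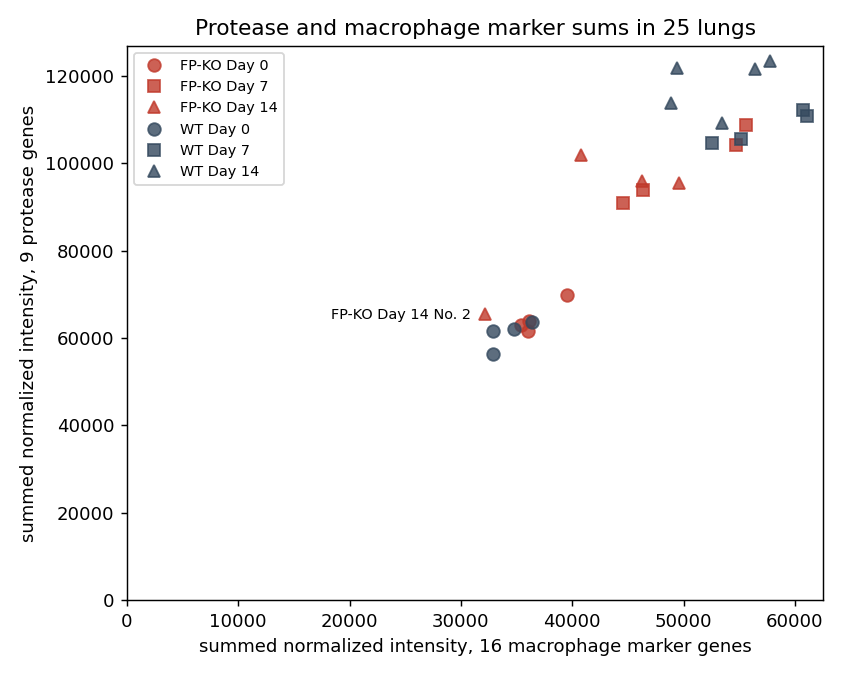
Summed normalized intensity of the 9 protease genes (vertical axis) against that of 16 macrophage marker genes (horizontal axis) in 25 lungs, by genotype and day. FP-KO Day 14 No. 2, labelled, lies with the Day 0 lungs at 32203 for the markers and 65464 for the proteases. Each sum is weighted toward its brighter probe sets.

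Fibroblast markers also moved. Of 10, 4 were called higher and 2 lower in each genotype on Day 7, with Col1a1 at 0.98 ± 0.25 in FP-KO and 2.26 ± 0.25 in WT, and on Day 14 1 was higher and 4 lower in FP-KO than in WT (1 and 2 without No. 2). Their summed intensity ran over 58722 to 67648, 65906 to 72675 and 68603 to 87281 on Days 0, 7 and 14 in FP-KO lungs, and over 54414 to 61349, 74401 to 78959 and 76846 to 97027 in WT lungs. Of 9 tested neutrophil markers, 2 in FP-KO and 2 in WT were called higher on Day 7, and on Day 14 3 in FP-KO and 5 in WT were called lower than on Day 0. Of 9 dendritic cell markers, 3 in FP-KO and 5 in WT were called higher on Day 7. Of 9 tested cardiac and skeletal muscle genes, 6 were called higher in FP-KO than in WT on Day 14, and 2 without No. 2. Among all genes on Day 7, 12.6% were called higher and 10.7% lower in FP-KO, and 17.1% and 18% in WT. On Day 14, 1.41% in FP-KO and 19.5% in WT were called lower than on Day 0. Between the genotypes on Day 14, 4.89% were called higher and 5.64% lower in FP-KO (1.59% and 1.66% without No. 2). The part of these cells and tissues in the members' changes was not tested.

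The genes whose log2 intensity was most like the mean of the 9 members over the 25 arrays were C1qb (Pearson's r = 0.98), C1qc (0.98), C1qa (0.98), Gusb (0.98) and F7 (0.98), and after the group means were taken away their r with it was 0.96, 0.94, 0.95, 0.86 and 0.83. Those r values describe arrays that share groups, and no p-value is given. For Ctss the 3 most like genes were Ms4a7 (0.98), Cd68 (0.98) and C1qb (0.98), and for Ctsk they were F7 (0.96), Clu (0.96) and Psrc1 (0.95). Ctsd was most like Cpxm1 (0.98), Ctsa (0.97) and Col1a2 (0.96). Ctsl had the lowest values, with Igfbp7 (0.83), Nfya (0.83) and Pld3 (0.81). Among the members themselves, the correlation of the deviations from the group means ran from 0.17 (Ctsh with Ctsc) to 0.85 (Ctsd with Lgmn).

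Other probe sets of the same genes were checked. The 9 genes had 19 probe sets in all, each tested. The adjusted p-values of this paragraph come from a separate limma fit over 21403 probe sets. They are not on the same footing as those over 12062 genes given above. Those of Ctsb disagreed in size: the brightest gave a WT Day 7 difference of 0.76, and 4 others gave 1.17, 0.76, 0.24 and 1.17 in the same comparison, the third of these not called (adjusted p = 0.166). For Ctsz the brightest gave 0.85 and the 2 others 1.28 and 1.16. The 2 dimmer probe sets of Ctsc gave 0.47 and 0.059, the second not called (adjusted p = 0.819), against 0.66 for the brightest. The second probe set of Ctsh gave 0.89. Ctsl's dim second probe set, above the array median on 4 arrays, gave -0.57, of the opposite sign to its bright one and not called (adjusted p = 0.0876). For FP-KO against WT on Day 14 (limma), the 4 others of Ctsb gave -0.54, -0.41, -0.13 and 0.0039. Their adjusted p-values were 0.0215, 0.0466, 0.593 and 0.997. In the same fit the brightest Ctsb probe set, at -0.29, was not called (adjusted p = 0.061). In the limma fit over genes it was called (adjusted p = 0.043). The 2 dimmer ones of Ctsc gave -0.28 and -0.29, neither called (adjusted p = 0.297 and 0.286). Ctsh's second gave -0.56 (adjusted p = 0.0541), and the brighter of the 2 other Ctsz probe sets -0.52 (adjusted p = 0.0121). The dimmer one of Ctsz averaged 2438 in FP-KO and 3219 in WT lungs on Day 14, and its test is not given here. Ctsl's second gave 0.25, again of the opposite sign (adjusted p = 0.605).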

How the data were processed

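RNA from 25 mouse lungs was measured on Affymetrix mouse 430 2.0 arrays, labelled from 6 ug total RNA per the labels' protocols. The deposited values are linear intensities of 45101 probe sets, and on every array their mean, after 2% was trimmed at each end, is 500, so the authors scaled the arrays; the software and summary method are not given in the sources used here. Groups were taken from the sample titles. Values were raised to a floor of 24.3 (the 20th percentile of all values), put on the log2 scale and quantile normalized, since array medians differed by 0.43 log2. Of the probe sets, 34945 had 1 gene symbol, 932 several, 9160 none and 64 were controls. The brightest probe set stood for each gene, and 12062 of 18193 genes, those above the array median on at least 4 arrays, were tested with limma 3.58.1 (R 4.3.3) on the 6 group means, in 12 comparisons. Figures were drawn with matplotlib 3.10.9. On simulated data for WT Day 7 against Day 0, 88.5% of 200 genes changed by 1 log2 unit were recovered.

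Every named member is described. From each other list at most 4 genes per comparison were named, those called with the largest difference. The members and the lists were chosen with earlier results of these data known. Other floors, filters, normalizations, probe set rules, weights, blocks and omitted lungs were tried. The counts of the other lists and of all genes without FP-KO Day 14 No. 2 and within the sets of Day 14 arrays were chosen after seeing the data. The deviations of same-numbered FP-KO and WT lungs from their group means correlated at 0.12 to 0.34 on Day 0, 0.14 to 0.22 on Day 7 and -0.31 to 0.44 on Day 14. All 4 pairs thus exceeded 0.1 on Days 0 and 7, and not on Day 14. Correlations of differently numbered lungs are not given, so these values cannot show whether the numbers pair the lungs of the 2 genotypes. The fit with mouse number as a block, which ties lungs of the same number over all days, is given with the alternatives. The labels do not say whether lungs were processed together. The mice are separate animals by their titles, so p-values weigh each difference against the spread between mice within the 6 groups. The main fit holds no term for mouse number or for the sets of Day 14 arrays. The number of arrays limits the precision.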

Additional observations from a re-analysis of the deposited data

Results flagged for a closer look

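Of 54 groups of 4 or 5 lungs, 2 held a lung far from the others by Dixon's test, which marks about 5% of groups by chance. Ctss in FP-KO Day 14 No. 2 measured 7350.44, against 15997 to 17128 in the other 3 lungs of its group. Ctsb in WT Day 7 No. 2 measured 16891.8, against 14952 to 15238 in the other 3.

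The change by Day 14 from Day 0 differed between the genotypes for 3 members by the interaction test. FP-KO minus WT was -0.518647 on the log2 scale for Ctsz, -0.430798 for Ctsc and -0.88314 for Lgmn. Without FP-KO Day 14 No. 2 none of the 3 was called, with Ctsz at -0.40, Ctsc at -0.36 and Lgmn at -0.69.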

How the results depend on the processing

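Under 41 other settings, 25 of them leaving out 1 lung, 24 of the 41 called member differences kept their call in every setting, 0 called values changed sign, and 58 values that were not called in either fit did. The counts of members called on Day 7 against Day 0 did not move by over 1.5 times in either genotype, nor did that of WT Day 14 against Day 0. With mouse number as a replicate block, the WT Day 14 against Day 7 count was 1 (Ctsd, 0.38, adjusted p = 0.0414), against 0, and no other count moved. In the interaction on Day 14 from Day 0 the block kept the count of 3 but called Ctsk (-1.13, adjusted p = 0.0498) and not Ctsc (-0.45, adjusted p = 0.0508); it changed no other member's call. The cause of each move was not tested. The count of WT Day 14 against Day 7 was also 1 with array weights. It was 1 as well with Day 14 limited to WT No. 1 to 3 and FP-KO No. 1 and 2. These are called the first set here, and the others the second set. FP-KO Day 14 against Day 0, 5 members, became 2 with a common median, 8 with array weights, 0 with a fit on the compared groups alone, 2 in the first set and 2 with the sets as an added term. FP-KO Day 14 against Day 7, 1 member, became 3 on the values as deposited, 0 with the mean of probe sets, 0 with every probe set tested, 0 with array weights, 0 with the compared groups alone, 0 in the second set, 3 in the first and 0 with the added term. FP-KO against WT on Day 14, 7 members, became 3 with a common median, 1 with the compared groups alone and 0 in the second set. The interaction on Day 14 from Day 0, 3 members, became 1 on the values as deposited, 0 with a common median, 0 with no filter, 1 with the mean of probe sets, 0 with every probe set tested, 7 with array weights, 0 with the compared groups alone, 0 in the second set and 6 in the first. Leaving out 1 lung gave 0 to 1 for WT Day 14 against Day 7, 1 to 8 for FP-KO Day 14 against Day 0, 0 to 2 for FP-KO Day 14 against Day 7, 1 to 8 for FP-KO against WT on Day 14 and 0 to 6 for the interaction. The counts of this paragraph stand without the shares of all genes called in the same settings. They therefore do not describe the members alone. Probe sets near the floor are limited by their brightness; no member value was at it.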
